A study of Bos taurus with 40 samples.

Results

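The enzymes that make fatty acids from acetyl-CoA were followed as 4 genes in muscle of growing bulls during feed restriction and after the return to full feeding. They were ACLY (ENSBTAG00000016740), ACACA (ENSBTAG00000017567), FASN (ENSBTAG00000015980) and SCD (ENSBTAG00000045728), chosen by identifier, and all 4 were found among the 24616 genes of the deposited count tables. The study held 20 purebred Holstein-Friesian bulls, all on a diet of 70% concentrate and 30% silage. Restricted bulls received an allowance set for a gain of 0.6 kg per day over a period 1 of 125 days and were then fed freely for a period 2 of 55 days, whereas control bulls were fed freely over the whole 180 days. Muscle biopsies gave 4 groups of 10 libraries: restricted bulls on day 15 of period 2, restricted bulls on day 120 of period 1, control bulls on day 15 of period 2 and control bulls on day 120 of period 1. Which muscle was sampled is not given in the sources used here.

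ATP citrate lyase, encoded by ACLY, splits citrate in the cytosol and releases acetyl-CoA. Acetyl-CoA carboxylase alpha, the product of ACACA, turns this into malonyl-CoA and is the committed step of the pathway. Fatty acid synthase, from FASN, builds palmitate from malonyl-CoA with NADPH, and stearoyl-CoA desaturase, from SCD, puts a double bond into the saturated products and so makes oleate. In cattle adipose tissue is the main site of this pathway and acetate from the rumen is a main carbon source, so the citrate route is known to carry less of the flux than in rodents. In muscle the pathway is best known from the fat cells that lie between the fibres, the marbling of beef. A biopsy holds fibres, fat cells and other cells together, so fewer cells of a type and less RNA per cell cannot be told apart in these values.

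Each library held 20.8 M to 33.0 M counts over genes, and the 4 genes had between 143 and 18411 counts in each, so that counting error alone was at most 8.36% of a value. Levels are given as CPM, the counts of a gene per 1000000 counts over genes, and they are compared only within a gene because CPM does not account for transcript length. 7 of the 40 libraries had 10.0% to 11.2% of their reads outside genes, against 13.3% to 18.7% in the other 33. They were restricted bull 10 of day 15, restricted bulls 1 and 9 of day 120, control bulls 2, 3 and 8 of day 15 and control bull 6 of day 120. All 7 had 5 or 6 as the first number of their library code. The only other library with such a number was control bull 2 of day 120, at 18.7%. What this number stands for was not examined, so these libraries are not simply 7 scattered animals. Results that rest on them are also given without them. The tables carry gene identifiers without names, so markers of muscle fibres, fat cells or other cells were not read from them here, and their part in the results was not tested.

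The question on day 120 was how muscle of bulls held at a low gain differed from that of freely fed bulls. ACLY was lower in the restricted bulls, at 0.27 of the control level by the fitted fold, and it was the single gene of the 4 past the threshold, an adjusted p under 0.05. The other 3 had lower fitted values too, but did not pass. All but FASN had an unadjusted edgeR p under 0.05, as did 3100 of the 12753 genes tested. Across all 12753 genes tested 9.79% passed in this comparison, 4.49% as higher and 5.3% as lower in restricted bulls.

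ACLY lay between 6.12 and 17.1 CPM in the 10 restricted libraries of day 120, with a median of 6.78 CPM, against 9.00 to 150.7 CPM in the control libraries, with a median of 19.5 CPM. All 10 restricted libraries were below the control median and 8 of them were below the lowest control library, while 6 control libraries were above the highest restricted one. The ranges overlapped through restricted bulls 1 and 6, at 17.1 and 11.2 CPM. The means were 8.23 ± 3.45 CPM in restricted and 33.3 ± 42.8 CPM in control bulls (SD, n = 10 each). The log2 fold change was -1.89 ± 0.44 (SE; edgeR quasi-likelihood test, adjusted p = 0.00412), the 36th lowest of all genes tested. Its 95% interval ran from -2.75 to -1.03. Control bull 4, at 150.7 CPM, set part of the size, and the fitted value was -1.13 when its library was left out (edgeR adjusted p = 0.0383). Without the 7 libraries it was -2.13 (edgeR adjusted p = 0.00702). Over all genes the median log2 difference was -0.04 with the scaling used (TMM) and -0.14 with library totals alone, which gave -2.02 for ACLY.

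ACACA, the next enzyme of the pathway, lay between 8.60 and 25.5 CPM in restricted bulls, with a median of 12.4 CPM, against 8.71 to 119.0 CPM in control bulls, with a median of 18.4 CPM. Of the restricted libraries 9 were below the control median, and 2 were below the lowest control library, so the groups overlapped over most of the restricted range. The log2 fold change was -1.03 ± 0.39 (edgeR adjusted p = 0.091), with a 95% interval of -1.80 to -0.26.

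FASN lay between 26.6 and 389.7 CPM in restricted bulls, with a median of 41.6 CPM, and between 41.0 and 620.2 CPM in control bulls, with a median of 101.1 CPM. SCD lay between 9.35 and 147.7 CPM in restricted bulls, with a median of 14.0 CPM, and between 19.0 and 467.3 CPM in control bulls, with a median of 48.2 CPM. The restricted libraries reached under the control range, with 5 libraries for FASN and 6 for SCD below the lowest control library, and they overlapped with it above that. The log2 fold change was -0.86 ± 0.52 for FASN (edgeR adjusted p = 0.311) and -1.35 ± 0.57 for SCD (edgeR adjusted p = 0.131). Their 95% intervals were wide, from -1.87 to 0.15 for FASN and from -2.47 to -0.23 for SCD.

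Among the fits that left out 1 library, FASN and SCD were called only without restricted bull 1. It was the highest restricted library of day 120 for all 4 genes, and it held 44.3% of the summed FASN level and 41.2% of the summed SCD level of its group, but 18.4% for ACACA and 20.8% for ACLY. Without it the log2 fold change was -1.54 for FASN (edgeR adjusted p = 0.0357) and -1.95 for SCD (edgeR adjusted p = 0.0219). Its library is also among the 7, and without all 7 the values were -1.57 (adjusted p = 0.0463) and -1.97 (adjusted p = 0.0292). A control library pulled the other way: without control bull 4 the log2 fold change was -0.34 for FASN and -0.56 for SCD, and -0.44 for ACACA. Over the fits that left out 1 library the highest edgeR adjusted p was 0.733 for FASN, 0.565 for SCD and 0.483 for ACACA. The size of these differences thus depended on 1 extreme library in each group. The difference in ACLY passed in each of the 20 fits that left out 1 library of this comparison, with edgeR adjusted p of 0.00278 to 0.0383.

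**Figure D1:**
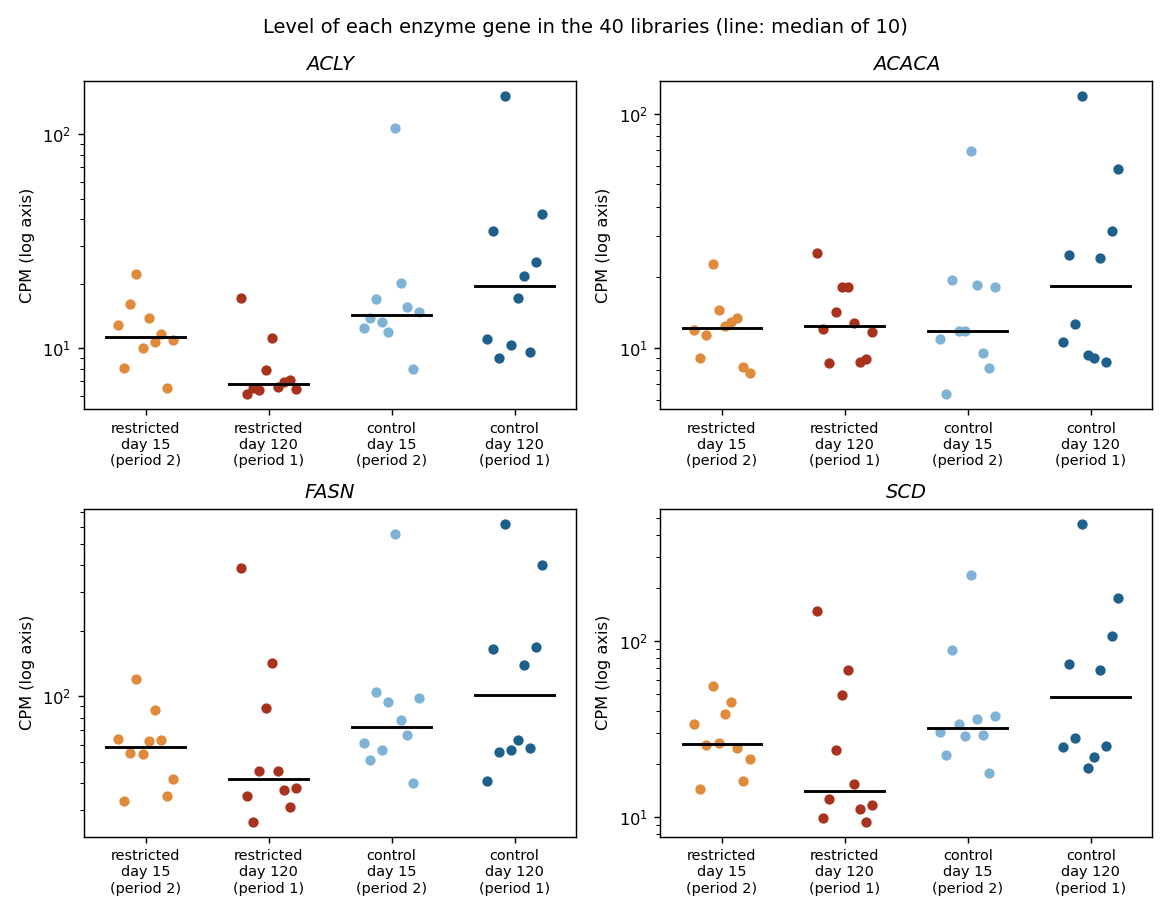
Level of each gene in every library in CPM on a log axis, by group, with 10 points per group and the median as a line. In restricted bulls of day 120 the ACLY points sit between 6.12 and 17.1 CPM, all below the median of the control bulls of that day, and for all 4 genes the ranges of restricted and control bulls overlap.

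On day 15 the question was what still separated previously restricted from control bulls once both ate freely. None of the 4 genes passed: all were lower by the fitted value, with edgeR adjusted p of 0.2 to 0.444. ACLY alone had an unadjusted edgeR p under 0.05, as did 2971 of all 12753 genes tested. DESeq2 and limma with voom called 0 of the 4 as well. Over all genes 7.2% passed, 3.28% as higher and 3.92% as lower in previously restricted bulls. ACLY lay between 6.49 and 22.2 CPM in previously restricted bulls, with a median of 11.3 CPM, against 8.02 to 107.1 CPM in control bulls, with a median of 14.3 CPM. The groups overlapped, with 1 previously restricted library below the lowest control library and 1 control library above the highest previously restricted one. The log2 fold change of ACLY was -0.89 ± 0.43 (edgeR adjusted p = 0.2), and its 95% interval of -1.73 to -0.05 does not show that the groups were alike.

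ACACA lay between 7.78 and 22.9 CPM in previously restricted bulls, with a median of 12.1 CPM, against 6.34 to 68.9 CPM in control bulls, with a median of 11.8 CPM. FASN lay between 33.0 and 120.5 CPM in previously restricted bulls, with a median of 58.8 CPM, against 40.1 to 556.1 CPM in control bulls, with a median of 72.2 CPM. SCD lay between 14.4 and 55.8 CPM in previously restricted bulls, with a median of 25.8 CPM, against 17.6 to 239.2 CPM in control bulls, with a median of 32.1 CPM. Control bull 6 stood above every other library of the day for all 4 genes, and the groups overlapped over most of their ranges. The log2 fold changes were -0.52 ± 0.39 for ACACA, -0.94 ± 0.52 for FASN and -0.88 ± 0.57 for SCD. Without control bull 6 they were -0.01, -0.24 and -0.27, and that of ACLY was -0.19.

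**Figure D2:**
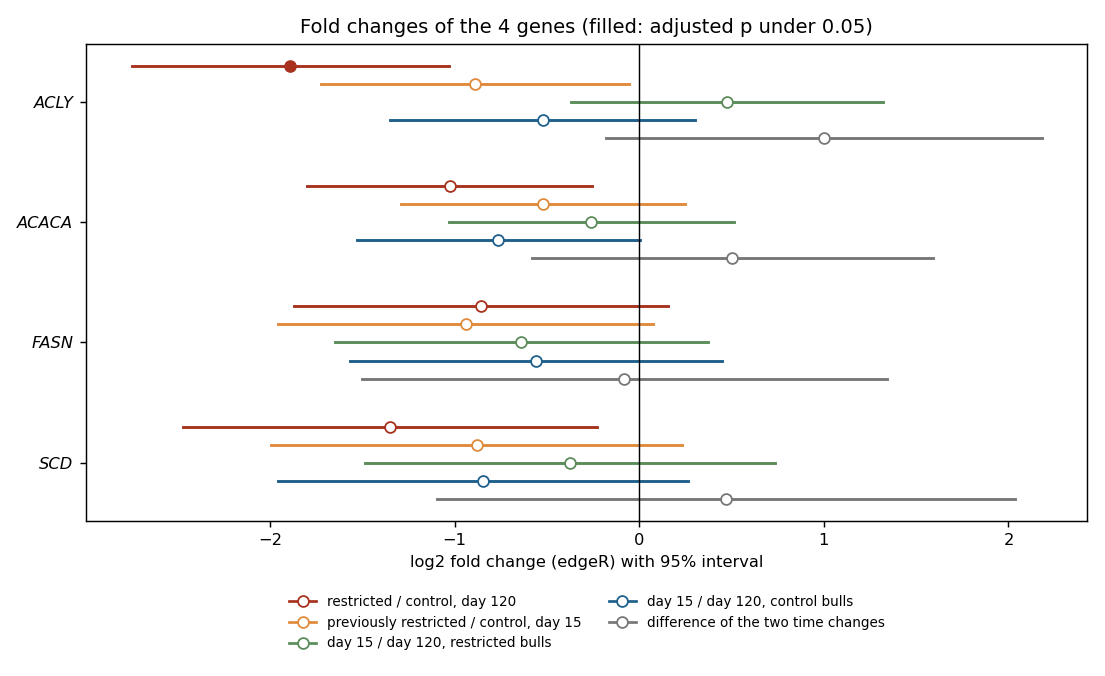
Fitted log2 fold change of each gene with its 95% interval in the 5 comparisons, later or restricted over earlier or control. The filled point, past an adjusted p of 0.05, is ACLY on day 120 at -1.89; most of the other intervals reach or cross 0.

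Over time in the restricted group the question was how the genes moved in the first days of free feeding. None of the 4 passed in edgeR, with adjusted p of 0.419 to 0.699 and none at an unadjusted p under 0.05, nor in DESeq2 or limma with voom. Of all genes 19.1% passed in edgeR, 9.81% as higher and 9.34% as lower on day 15. An unadjusted edgeR p under 0.05 was found for 4022 of the 12753 genes. ACLY was higher on day 15 than on day 120 in 8 of 10 bulls, with a median log2 change of 0.55 per bull and a fitted log2 fold change of 0.48 ± 0.43. SCD was higher in 7 of 10 bulls, with a median of 0.82. FASN was higher in 6 of 10 bulls, with a median of 0.15, and ACACA in 4 of 10, with a median of -0.22.

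The fitted log2 fold changes over time were -0.38 ± 0.57 for SCD, -0.64 ± 0.52 for FASN and -0.26 ± 0.39 for ACACA. The sign for FASN and SCD depended on restricted bull 1, whose FASN level was 64.1 CPM on day 15 and 389.7 CPM on day 120. Its SCD level was 33.6 CPM on day 15 and 147.7 CPM on day 120. Without its day 120 library the fitted values were 0.07 for FASN and 0.25 for SCD. The fit of group means treats the libraries of a bull as independent. A block for each bull compares every bull with itself. It gave -0.04 ± 0.46 for FASN and 0.28 ± 0.51 for SCD (edgeR adjusted p = 0.961 and 0.746). For ACLY and ACACA it gave 0.50 ± 0.36 and -0.22 ± 0.35 (edgeR adjusted p = 0.357 and 0.717).

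In control bulls, fed freely throughout, levels moved in both directions. The SD of the log2 change of FASN per bull was 1.21 in restricted and 1.92 in control bulls, a difference that was not tested. Each of the 4 genes was higher on day 15 in 5 control bulls and lower in the other 5. Control bull 4 had 56.9 CPM of FASN on day 15 and 620.2 CPM on day 120, and its ACLY level was 13.2 CPM on day 15 and 150.7 CPM on day 120. Control bull 6 did the reverse, with 556.1 CPM of FASN on day 15 and 63.4 CPM on day 120, and 107.1 and 17.2 CPM of ACLY on those days. The bull with the highest level was thus not the same at both times. None of the 4 genes passed over time in control bulls, with edgeR adjusted p of 0.272 to 0.507 and none at an unadjusted p under 0.05, nor in DESeq2 or limma with voom. Of all genes 0.0392% passed in edgeR, and 2439 of the 12753 had an unadjusted p under 0.05. The fitted log2 fold changes were -0.52 ± 0.42 for ACLY, -0.76 ± 0.39 for ACACA, -0.56 ± 0.51 for FASN and -0.85 ± 0.57 for SCD. Without control bull 4 of day 120 they were 0.21, -0.19, -0.07 and -0.08, and without control bull 6 of day 15 they were -1.21, -1.25, -1.24 and -1.44.

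**Figure D3:**
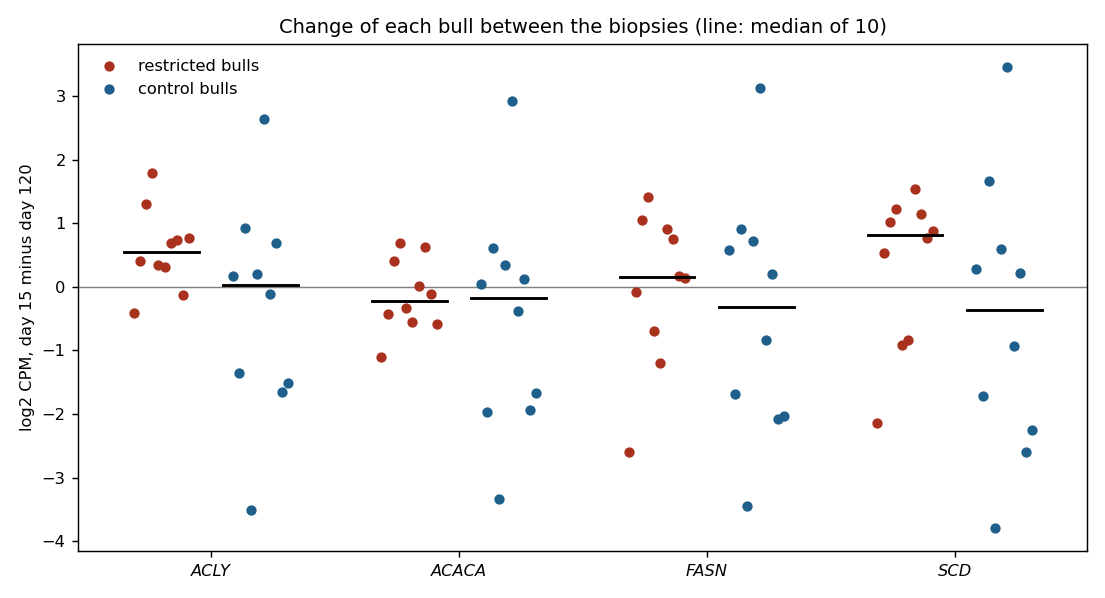
Change of each bull from day 120 to day 15 in log2 CPM, for each gene, with restricted bulls left and control bulls right and the median of 10 as a line. Restricted bulls lie mostly above 0 for ACLY, in 8 of 10, and for SCD, in 7 of 10, while control bulls divide evenly, with control bulls 4 and 6 at the extremes.

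Whether a bull with a high level on day 120 also had one on day 15 was examined in 8 correlations, 4 genes in each feeding group, and none passed. Pearson's r lay between -0.37 and 0.46, with permutation p adjusted over the 8 of 0.756 to 0.819. The strongest by rank was SCD in restricted bulls, with r = 0.46 and Spearman's rho = 0.78 (permutation adjusted p = 0.756 and 0.0815, n = 10). There r was 0.42 without the 2 bulls farthest from the median of day 120. Without the 2 farthest bulls r lay between -0.52 and 0.42 over the 8.

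The test of whether the change over time differed between restricted and control bulls, the interaction, was not past the threshold for any of the 4 genes in edgeR, DESeq2 or limma with voom. None had an unadjusted edgeR p under 0.05, against 2802 of the 12753 genes tested. After adjustment 6.37% of all genes passed, 3.02% with a higher and 3.35% with a lower change in restricted bulls. The largest was that of ACLY, at 1.00 ± 0.60 (edgeR adjusted p = 0.334, with a 95% interval of -0.18 to 2.18). Without control bull 6 of day 15 it was 1.68 (adjusted p = 0.0317), and without control bull 4 of day 120 it was 0.25. Over the fits that left out 1 library its edgeR adjusted p ran from 0.0317 to 0.808. Those of ACACA, SCD and FASN were 0.50 ± 0.55, 0.47 ± 0.80 and -0.08 ± 0.73. With each bull as a block the interaction was 0.83 ± 0.53 for ACLY and 0.33 ± 0.52 for ACACA. It was 0.83 ± 0.75 for SCD and 0.43 ± 0.68 for FASN, and none of the 4 passed.

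By arithmetic mean the order of the groups was alike for FASN, SCD and ACACA, with restricted bulls of day 15 lowest, then restricted bulls of day 120, control bulls of day 15 and control bulls of day 120. The means in that order were 61.6 ± 26.0, 88.0 ± 111.9, 120.6 ± 154.5 and 176.6 ± 189.2 CPM for FASN (SD, n = 10 each). For SCD they were 30.0 ± 13.1, 35.9 ± 44.0, 56.4 ± 67.2 and 101.2 ± 138.1 CPM, and for ACACA 12.4 ± 4.30, 13.9 ± 5.38, 18.4 ± 18.3 and 30.7 ± 34.5 CPM. ACLY averaged 12.3 ± 4.43 CPM in restricted bulls of day 15, 8.23 ± 3.45 CPM in restricted bulls of day 120, 23.4 ± 29.6 CPM in control bulls of day 15 and 33.3 ± 42.8 CPM in control bulls of day 120. The place of the restricted groups in the order of FASN and SCD rested on restricted bull 1. By median FASN was at 58.8 CPM in restricted bulls of day 15 and 41.6 CPM in those of day 120, and SCD at 25.8 CPM on day 15 and 14.0 CPM on day 120. Without the highest library of each group the means were 55.0 CPM on day 15 and 54.5 CPM on day 120 for FASN, and 27.2 CPM on day 15 and 23.5 CPM on day 120 for SCD. By median ACACA was lowest in control bulls of day 15, at 11.8 CPM, and ACLY was lowest in restricted bulls of day 120 by mean and by median. No neighbours in the mean order of ACLY differed past the threshold. In the mean order of the other 3 genes neither the restricted nor the control pair of times did, and restricted bulls of day 120 were not compared with control bulls of day 15.

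The spread between animals was above that of the median gene for all 4 genes in each group, by unequal amounts. In control bulls of day 120 the SD of log2 CPM was 1.24 for ACLY, 1.25 for ACACA, 1.30 for FASN and 1.50 for SCD, where the median gene had 0.33, and 98.1% or more of all genes varied less. In restricted bulls of day 120 FASN and SCD varied as widely, with SDs of 1.23 and 1.4, but ACLY and ACACA did not. Their SDs were 0.50 and 0.53, above those of 76.5% and 79.8% of all genes. On day 15 all 4 had SDs of 0.39 to 0.59 in restricted bulls, against 0.90 to 1.08 in control bulls. These lay above 67.6% to 87.1% of all genes in restricted bulls and above 92.3% to 95.6% in control bulls. These differences in spread were not tested.

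Levels of the 4 genes were correlated from animal to animal. In each of the 4 groups 1 library was the highest for all 4 genes: restricted bull 4 on day 15, restricted bull 1 on day 120, control bull 6 on day 15 and control bull 4 on day 120. Among FASN, SCD and ACACA the 12 correlations of log2 CPM within groups had r between 0.78 and 0.99. All 12 passed in Pearson's and in Spearman's test (permutation p adjusted over 24 relations, n = 10 each). The 2 farthest libraries were those farthest from the median of 1 gene, the first in the order FASN, SCD, ACACA, ACLY. Without them r was at least 0.64 over the 12.

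The 12 correlations of ACLY with the other genes had r between 0.68 and 0.95 and passed in Pearson's test, but 4 of 12 passed in Spearman's, and r lay between 0.26 and 0.89 without the 2 farthest libraries. In restricted bulls of day 120 FASN and ACLY had r = 0.95 and rho = 0.59 (permutation adjusted p = 0.00217 and 0.0924, n = 10), and r = 0.55 without the 2 farthest. Dropping the ends of FASN narrows its range and can lower r by itself, so this does not show that the relation rested on those libraries. In control bulls of the same day they had r = 0.94 and rho = 0.88 (permutation adjusted p = 0.00042 and 0.0103, n = 10), and r = 0.89 without the 2 farthest. Whether the 2 groups differ in these correlations was not tested. From the 33 other libraries, with 7 to 9 per group, r lay between 0.63 and 0.99 over the 24 relations and 23 passed in exact permutation tests of Pearson's r. In exact permutation tests of Spearman's rho 10 of the 24 passed there, 6 of the 12 among FASN, SCD and ACACA and 4 of the 12 with ACLY. Without the 2 farthest of these libraries r lay between 0.56 and 0.99 among FASN, SCD and ACACA, and between -0.69 and 0.96 with ACLY. The lowest was that of ACACA and ACLY in restricted bulls of day 120, and FASN and ACLY in that group had r = -0.31. That group had 8 libraries before the 2 were dropped, so these values rest on few points.

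**Figure D4:**
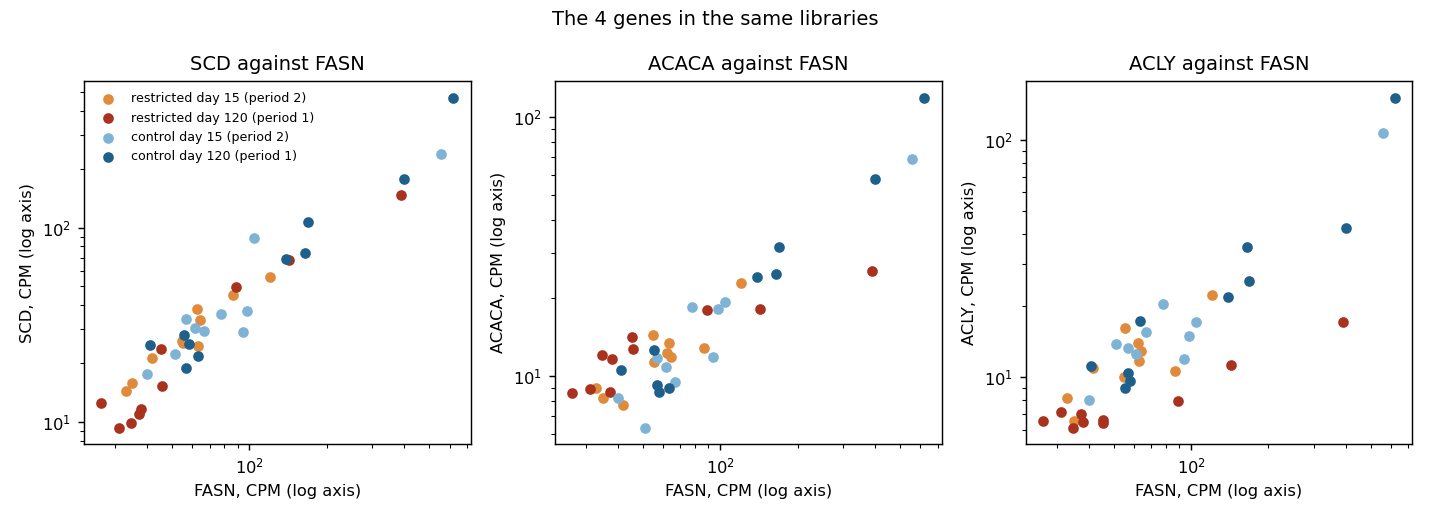
SCD, ACACA and ACLY against FASN in CPM on log axes, 1 point per library and a colour per group. SCD follows FASN over the whole range, and for ACLY the point of restricted bull 1 on day 120 lies apart, at 389.7 CPM of FASN and 17.1 CPM of ACLY.

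The ratio of 2 genes within a library does not depend on scaling. It shows unequal change and not which gene changed. The ratios were added after seeing the data, and adjusting their p over 30 tests does not cover that choice. Ratios with ACLY use the same counts as the call of ACLY on day 120, so they are not separate from it. The counts of ACLY per count of ACACA had a median of 0.586 in restricted bulls of day 120, within a range of 0.437 to 0.806, against 1.07 and a range of 0.710 to 1.90 in control bulls of that day. Of the restricted libraries 7 lay below the lowest control library. The mean log2 ratio was -0.74 ± 0.33 in restricted and 0.07 ± 0.45 in control bulls (SD, n = 10 each), a difference of -0.82 ± 0.18 (SE; two-sided permutation p adjusted over 30 tests of 6 pairs in 5 comparisons = 0.006). It passed without each single library, with differences of -0.88 to -0.72 and adjusted p of 0.003 to 0.0162, and without the 7 libraries (adjusted p = 0.0246).

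After 15 days of free feeding the ratio in restricted bulls was higher than on day 120, and no biopsy was taken before restriction. It had a median of 0.936 and a range of 0.693 to 1.41 on day 15, higher than on day 120 in 9 of 10 bulls. The change in the log2 ratio was 0.72 ± 0.13 in restricted bulls (exact sign-flip test over bulls, adjusted p = 0.0417) and 0.17 ± 0.10 in control bulls (adjusted p = 0.288, exact, n = 10). These changes differed between the feeding groups by 0.55 ± 0.16 (permutation adjusted p = 0.0417). Both calls lie close to the threshold and rest on the same changes of the restricted bulls, so they are not separate results. Their adjusted p is equal because the Benjamini-Hochberg step gave the change in restricted bulls the value of the difference. Of the fits that left out 1 library, 3 of 20 passed for the change in restricted bulls. For the difference between feeding groups 11 of 40 did. Leaving out a library took its whole bull out of these tests, so both libraries of a bull gave the same estimates. The tests then had fewer bulls and the exact test a coarser p, so these fits cannot tell dependence on 1 bull from lost resolution. Without single libraries the change in restricted bulls was 0.65 to 0.80 with adjusted p of 0.0391 to 0.0822, and the difference between feeding groups was 0.48 to 0.63 with adjusted p of 0.0102 to 0.0822. Without the 7 libraries they were 0.74 (adjusted p = 0.0993) and 0.65 (adjusted p = 0.0492, permutation). The comparison with control bulls on day 15 gave a difference of -0.27 ± 0.18 (permutation adjusted p = 0.291).

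The other 27 ratio tests did not pass, with adjusted p of 0.143 to 0.968. Among them SCD per FASN had a median of 0.358 in restricted and 0.471 in control bulls of day 120, a log2 difference of -0.35 ± 0.17 (permutation adjusted p = 0.179). ACACA per SCD had a median of 0.736 in restricted and 0.348 in control bulls of that day, a log2 difference of 0.71 ± 0.30 (permutation adjusted p = 0.143). ACLY per FASN had a log2 difference of -0.46 ± 0.28 (permutation adjusted p = 0.288), with restricted bull 1 lowest at 0.0439.

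**Figure D5:**
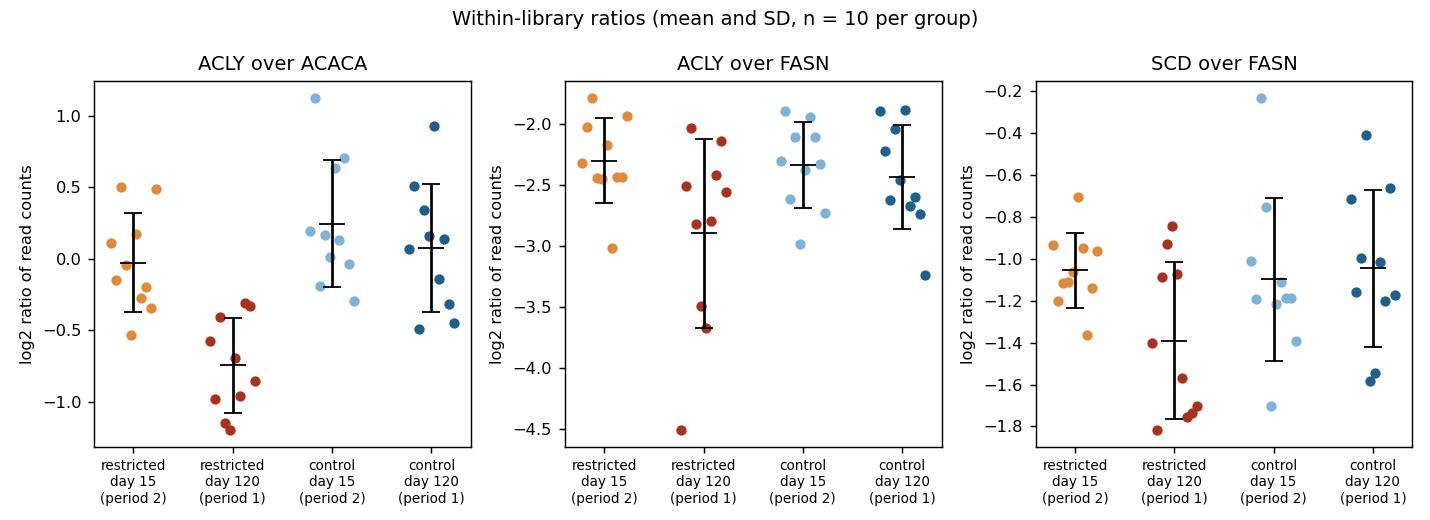
Log2 ratio of read counts within each library for 3 pairs of genes, by group, with the mean and SD of 10 libraries. For ACLY over ACACA the restricted bulls of day 120 average -0.74, below the other groups at -0.03, 0.24 and 0.07.

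Likeness was also measured against every gene with a mean of at least 1 CPM, as the correlation of log2 CPM over the 40 libraries. These are descriptions, since libraries of a bull are not independent. Among the 11051 genes SCD was the closest to FASN (r = 0.96), and FASN ranked 2 for SCD. FASN and SCD ranked 1 and 3 for ACACA, with r = 0.91 and 0.90. ACLY had SCD and FASN at ranks 6 and 7, with r = 0.87 for both, and ACACA at rank 15 with r = 0.84. Taken as deviations from the group means, which removes the differences between groups, the correlations among the 4 genes were 0.86 to 0.96. Among genes the tables do not name, ENSBTAG00000047957 was among the 5 closest to each of the 4, with r = 0.99 for SCD, 0.96 for FASN, 0.90 for ACACA and 0.89 for ACLY. Whether it shares reads with any of the 4 was not tested. ENSBTAG00000003758 was among the 5 closest to FASN, SCD and ACLY, with r = 0.95, 0.94 and 0.88.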

How the data were processed

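Libraries were single-end mRNA. TopHat, HTSeq, edgeR, CASAVA 1.4 and assembly UMD3.1 appear in the submitters' processing notes, without roles or settings. The deposited counts are whole reads per gene. The authors also deposited a normalised signal, the count scaled to an effective library size of 0.842 to 1.41 times the gene counts. Those values came within 0.000597 of whole counts when multiplied back, and they were used in 1 alternative only. Summary lines for reads outside genes, 10.0% to 18.7% per library, and for ambiguous reads were not part of library sizes. All pairs of libraries within groups differed by more than sampling noise (smallest chi-square per gene 24.4). The counting errors given per library cover counting only, as reads carry no molecular identifiers, whereas SEs and 95% intervals of fold changes include the spread between bulls.

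The quasi-likelihood test of edgeR 4.0.16 (R 4.3.3) was run with robust dispersions, TMM scaling and filterByExpr (minimum count 10, total 15), in 1 fit of 4 group means to 40 libraries, with Benjamini-Hochberg adjustment over 12753 genes and a threshold of 0.05. SEs come from the F statistics. CPM used all gene counts, and log2 CPM used TMM scaling and a prior count of 0.5. Ranges, medians, means and changes per bull are therefore not TMM scaled. This matters most for control bull 7 of day 15, with a TMM factor of 1.43, against 0.87 to 1.12 in the other libraries. Its levels were 20.3 CPM for ACLY and 77.7 CPM for FASN, against 14.4 and 55.1 in the authors' normalised signal. Ratios and correlations used 100000 resamples in Python 3.11.15, or exact sign flips. The tests were checked on simulated data. Title numbers were taken as bulls because both libraries of each of the 20 numbered pairs have library codes that differ by 30. Deviations of same-numbered libraries correlated at 0.20 to 0.37 in restricted and 0.12 to 0.43 in control bulls with a term for the 7 libraries, so 10 of 10 pairs in each were above 0.1. Without it 7 and 8 were. Libraries of different bulls had median correlations of -0.03 in restricted and -0.02 in control bulls with the term. The highest of these were 0.18 and 0.34 with the term, and 0.57 and 0.60 without it.

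Alternatives were DESeq2 1.42.0, limma 3.58.1, other scalings and filters, blocks, a library code factor and leaving out each library. The term for the 7 libraries, their removal, the authors' values and the ratios were added after seeing the data. The 4 genes and all gene lists were chosen with earlier results of these data known. The rule named the 4 genes in every comparison and the 5 most like each. Lists of partner enzymes, regulators, fat storage, fat oxidation, cholesterol synthesis and cell markers were written by symbol and were not used, since the count tables carry no names and 0 of 37063 genes in the RefSeq table (ARS-UCD2.0) matched their identifiers. The symbols of the 4 genes were given with the choice of members. The labels' protocols differ on whether 20 bulls were the total or the number per feeding group, and 10 per group were assumed.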

Additional observations from a re-analysis of the deposited data

Results flagged for a closer look

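A library stood apart from the rest of its group, by a gap to its nearest neighbour that was large against the range of log2 CPM, in control bulls of day 15. Control bull 6 was this library for FASN at 556.1 CPM, for ACACA at 68.9 CPM and for ACLY at 107.1 CPM. For SCD, at 239.2 CPM, its gap was not large enough. In the same group control bull 3 had the lowest ratio of ACLY to SCD counts, at 0.191, which also stood apart, and its library is among the 7 with few reads outside genes. These were 4 of 40 sets of 10 libraries examined, where chance gives about 1 in 20, and the genes are correlated, so the first 3 are not separate.

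The change over time in the ratio of ACLY to ACACA differed between feeding groups, by 0.55 on the log2 scale, as given above.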

How the results depend on the processing

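Log2 fold changes are given throughout, with counts of genes named as such. On day 120 ACLY was lower in restricted bulls under all 34 alternatives and passed in 33, and the exception was the block by title number, a number that restricted and control bulls share by name only (-1.31, adjusted p = 0.0816). Leaving out the 7 libraries gave -1.57 for FASN and -1.97 for SCD, both past the threshold. Leaving out 1 library gave -1.54 to -0.34 for FASN and -1.95 to -0.56 for SCD. Genes called on day 120 were 1249, against 2207 with the first library code number as a factor, 661 with the title number block, 2273 with a term for the 7 libraries and 2102 without them. On day 15 they were 918, against 579 from the compared groups alone, 78 with the title number block, 1413 with the term, 569 with limma on the authors' values and 567 to 1363 without 1 library.

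Over time in restricted bulls FASN turned to 0.038 without the 7 libraries and ran from -0.79 to 0.068 without 1 library. SCD turned to 0.25 with limma and voom, also with the bull as a random effect, 0.073 with the code number, 0.28 with the replicate block of each bull, 0.18 without the 7 libraries, 0.29 with the block and the term together and -0.51 to 0.25 without 1 library. Genes called were 2442, against 3990 with the term and 4571 with block and term. In control bulls ACLY ran from -1.21 to 0.21 without 1 library. Genes called there were 5, against 22 with DESeq2 size factors or upper quartile scaling, 13 with total counts, 20 when genes under a mean of 1 CPM were dropped, 117 with DESeq2, 10 with limma and the bull as a random effect, 8 with the code number, 3 from the compared groups alone, 3 with the bull block, 33 with the term, 90 without the 7 libraries, 8 with block and term and 2 to 298 without 1 library.

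For the interaction FASN turned to 0.036 with total counts, 0.36 with limma and voom, with or without the bull as a random effect, 0.81 with the code number, 0.43 with the bull block, 0.10 with the term, 0.51 without the 7 libraries, 0.52 with block and term and -0.60 to 0.62 without 1 library. Without 1 library SCD ran from -0.32 to 1.08, ACACA from -0.086 to 1.00 and ACLY from 0.25 to 1.68. Genes called were 812, against 1630 with the code number, 1692 with block and term and 640 to 1318 without 1 library. The block of each bull changed no call of the 4 genes. Without the 7 libraries the correlation between times in control bulls turned to 0.11 for SCD, 0.16 for ACACA and 0.059 for ACLY. The log2 ratio of ACLY to SCD turned to 0.066 on day 120 and -0.11 for the interaction, and over time in control bulls that of ACACA to FASN turned to 0.024 and of ACACA to SCD to 0.29. The cause of these shifts was not tested. Leaving out single libraries was run for the 3 ratios past the threshold only. Counting error was at most 8.36%, small beside the spread between libraries, and what made up that spread was not tested.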
